A study of Mus musculus with 6 samples.

Results

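The microRNAs that hepatocyte nuclear factors switch on, mmu-miR-122, mmu-miR-192, mmu-miR-194 and mmu-miR-215, called here by their names without the prefix for mouse, were followed in liver tumours and the liver beside them. Every row of the deposited table that carried 1 of these names, with any copy number or arm, was taken, which gave 4 rows of 695, a single row each. The rows carry no arm suffix. The arrays held 1 log2 value per mature microRNA for 3 liver tumours and for 3 samples of liver of normal appearance beside those tumours, numbered 1293, 1309 and 1316 in both groups. All tissue came from C57BL/6J mice at 6 months of age that had received 3E10 particles of AAV-Rian-CMV, an adeno-associated virus vector for gene targeting at Rian, into a vein of the head 1 day after birth. The adjacent liver therefore came from vector-injected animals too, and no uninjected liver was analysed here. The source label of the third tumour reads 1306, whereas its title and its adjacent piece read 1316.

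Hepatocyte nuclear factors are transcription factors that set the adult liver's gene programme, and their microRNA targets are read as signs of hepatocyte identity. miR-122 is the main microRNA of hepatocytes and supports cholesterol and lipid metabolism, and mice that lack it develop liver tumours. miR-192 and miR-194 are made from a common transcript in liver and other epithelia, and miR-215 is a close relative of miR-192 best known from intestine and kidney. In human cells p53 also raises miR-192, miR-194 and miR-215.

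The sequences show which of the 4 rows could read each other's targets and which come from shared genes. They are RefSeq's mature 5p sequences, build GRCm38.p6, with the seed, bases 2 to 8 counted from the 5′ end, in capitals. The 5p arm is the one that older names without a suffix denote, and 3 of the 4 rows are shown.
miR-192: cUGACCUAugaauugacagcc
miR-215: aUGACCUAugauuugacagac
miR-194: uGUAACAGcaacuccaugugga
miR-192 and miR-215 share the seed UGACCUA, and no other of the 1679 mature sequences read for comparison carries it. They are identical at 18 of 21 positions and differ by C1A, A12U and C20A (miR-192 base, position, miR-215 base), so probes for the pair may read each other's targets. miR-194 has its own seed, GUAACAG, which no other sequence among the 1679 carries.

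Mature miR-192 lies at chr19:6264857-6264877, plus strand, and its hairpin begins 115 bases after that of miR-194-2. Both hairpins lie between the protein-coding genes Atg2a and Ehd1, in no annotated gene. Mature miR-215 lies at chr1:185313610-185313630, plus strand, 195 bases separate its hairpin from that of miR-194-1, and both of these lie within the span of Iars2, the gene of mitochondrial isoleucyl-tRNA synthetase. The mature miR-194 sequence is the same from chr19:6264658-6264679 and chr1:185313325-185313346, so its row sums both genes.

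miR-194 and miR-192 had lower values in all 3 tumours than in any adjacent piece, whereas miR-122 and miR-215 overlapped between the groups. None of the 4 passed limma's test over all 695 microRNAs at an adjusted p of 0.05, and 2 of them, miR-192 and miR-194, had an unadjusted p below 0.05. Over all rows 2.88% of microRNAs were called in either direction, 0.288% lower in tumours, and 14.1% were lower at an unadjusted p below 0.05. At that threshold 5.9% were higher. Non-overlapping groups with lower tumours were found in 22.9% of all microRNAs, and 59.6% had a lower mean in tumours, as did all 4. The median log2 difference, tumour minus adjacent, was -0.28 over the 4 and -0.03 over all 695. In whole tissue, fewer hepatocytes and less microRNA per hepatocyte cannot be told apart.

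**Figure D1:**
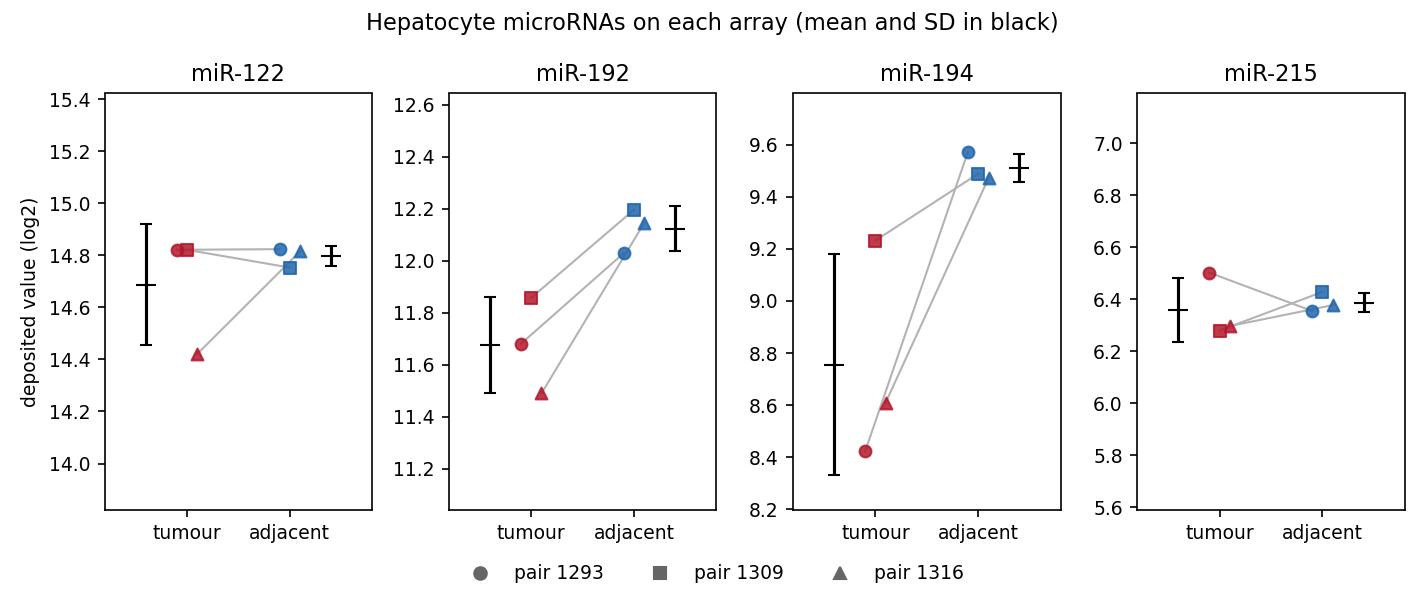
Deposited log2 value of each microRNA on each array, tumours on the left and adjacent liver on the right, with lines joining a pair and black bars for mean and SD (n = 3). Each panel spans the same height in log2 units. miR-192 and miR-194 are separated between the groups, tumour 1316 alone is low for miR-122, and miR-215 stays between 6.28 and 6.50.

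miR-194, which restrains migration genes in human liver cancer cells, showed the largest difference of the 4. Its log2 values were 8.42, 9.23 and 8.61 in tumours 1293, 1309 and 1316, against 9.57, 9.49 and 9.47 in their adjacent pieces. Tumours 1293 and 1316 were far below adjacent liver and tumour 1309 was close to it, so the spread among tumours (SD 0.42) was 7.80 times that among adjacent pieces (SD 0.05). Tumours spread more over all rows too, where their median SD was 2.85 times that of adjacent pieces. The log2 difference of miR-194 was -0.76 ± 0.21 (SE; 95% interval -1.26 to -0.25), a tumour level of 0.592 times the adjacent one, with a limma adjusted p of 0.12. It was called only where tumour 1309 was left out (-0.996, limma adjusted p = 0.0038), where pair 1309 was left out (-1.01, limma adjusted p = 0.048) and under array weights (-0.65, limma adjusted p = 0.017). In these settings 5.32%, 0.863% and 12.5% of all microRNAs were called lower. Of the 174 microRNAs brightest in adjacent liver, among them miR-194, 21.3% were called lower without tumour 1309. On the linear scale the tumours held 0.450, 0.837 and 0.550 times the adjacent level in pairs 1293, 1309 and 1316.

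miR-192, which shares a transcript with miR-194-2, differed less but more evenly. Tumours 1293, 1309 and 1316 had log2 values of 11.68, 11.86 and 11.49, and their adjacent pieces had 12.03, 12.20 and 12.15. All tumours were below all adjacent pieces, with tumour 1316 lowest. The log2 difference was -0.45 ± 0.11 (SE; 95% interval -0.71 to -0.19), or 0.733 times the adjacent level, with a limma adjusted p of 0.097. Without tumour 1293 it was called at -0.45 (limma adjusted p = 0.039) and without tumour 1309 at -0.54 (limma adjusted p = 0.033). In these settings 12.2% and 5.32% of all microRNAs were called lower. Of the 174 microRNAs brightest in adjacent liver, among them miR-192, 47.1% and 21.3% were called lower. Array weights, without and with a replicate block, also called miR-192, where 12.5% and 5.04% of all microRNAs were called lower.

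The size of the miR-192 difference depended on how the top of the scale was treated. Ordered by brightness, miR-192 was in place 5 on every adjacent array and in tumour 1316, and in place 6 in tumours 1293 and 1309, where miR-720 stood above it. After quantile normalization of the deposited values, which gives equal ranks equal values, its difference was -0.07 ± 0.04 (SE; limma adjusted p = 0.47) and the groups overlapped. miR-194 moved much farther in rank, with places 45, 26 and 42 in tumours 1293, 1309 and 1316, against 23, 24 and 25 in their adjacent pieces. Its difference after the same step was -0.69, near the -0.76 of the deposited values.

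miR-122 was the brightest row on all 6 arrays, so tumours and adjacent pieces alike carried the defining microRNA of hepatocytes. Its log2 values were 14.82, 14.82 and 14.42 in tumours 1293, 1309 and 1316, against 14.82, 14.75 and 14.82 in their adjacent pieces. Tumour 1316 alone was low, and the other tumours lay within the range of adjacent liver. The log2 difference was -0.11 ± 0.12 (SE; 95% interval -0.40 to 0.18; limma adjusted p = 0.66), and it was 0.02 without tumour 1316. Tumours 1293 and 1309 carried the same deposited miR-122 value to every digit, and it was the only row of 695 identical between these arrays. Other arrays shared a value too. miR-1937b was identical between tumours 1293 and 1316 and between tumour 1309 and its adjacent piece, and miR-30a between adjacent pieces 1293 and 1309. Quantile normalization within RMA, the authors' method, can give the brightest row the same value on different arrays. Its part in the miR-122 difference was not tested.

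miR-215, with the seed of miR-192, lay amid the bulk of the table. Its log2 values were 6.50, 6.28 and 6.30 in tumours 1293, 1309 and 1316, against 6.36, 6.43 and 6.38 in their adjacent pieces. The median over all microRNAs of the mean in adjacent liver was 6.39. Tumour 1293 was the highest of the 6 and tumour 1309 the lowest, so the groups overlapped. The log2 difference was -0.03 ± 0.08 (SE; 95% interval -0.22 to 0.16; limma adjusted p = 0.87). Its row stayed at this level on the arrays where the miR-192 row was among the 6 brightest. No detection calls were analysed here, so miR-215 cannot be called present or absent, and if the row holds only background its difference says nothing of the microRNA itself.

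For a single microRNA an exact permutation test of 3 tumours against 3 adjacent pieces cannot go below a two-sided p of 0.10. miR-192 and miR-194 reached that smallest value, and miR-122 and miR-215 gave exact p-values of 0.80 and 0.70. Every row whose groups do not overlap reaches it, so the test only repeats the separation given above. All tumours lay below all adjacent pieces for 22.9% of all microRNAs and for 65.5% of the 174 brightest in adjacent liver.

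The 3 tumours were not ordered alike for the different microRNAs. In pair 1293 the log2 differences, tumour minus adjacent, were -1.15 for miR-194, -0.35 for miR-192 and -0.0025 for miR-122. Pair 1309 had -0.26 for miR-194, -0.34 for miR-192 and 0.07 for miR-122. Pair 1316 had -0.86 for miR-194, -0.66 for miR-192 and -0.39 for miR-122. Only in pair 1316 was miR-122 below its adjacent piece by more than the SD of 0.04 among adjacent pieces, and in pair 1309 miR-192 and miR-194 were lower by similar amounts. For miR-215 the pairs gave 0.15, -0.15 and -0.08.

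**Figure D2:**
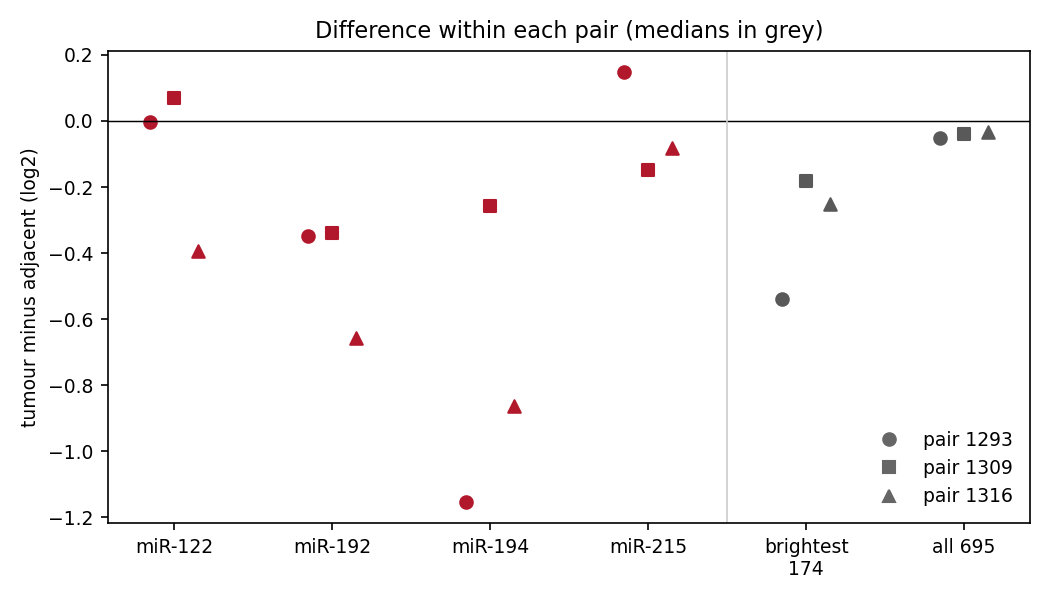
Log2 difference, tumour minus adjacent, within pairs 1293 (circles), 1309 (squares) and 1316 (triangles) for each microRNA in red, beside the median over the 174 brightest and over all 695 microRNAs in grey. miR-194 reaches -1.15 in pair 1293, while miR-122 is near 0 in pairs 1293 and 1309.

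The differences of the 4 microRNAs were set against each other within pairs in 6 comparisons, by exact sign-flip permutation over the 3 pairs, which allows no two-sided p below 0.25. The difference of miR-192 minus that of miR-194 was 0.80, -0.08 and 0.21 in pairs 1293, 1309 and 1316, or 0.31 ± 0.45 (SD, n = 3 pairs; exact p = 0.50, adjusted p = 0.60). In the deposited values this was less than the spread between pairs, whereas after quantile normalization it was 0.62 ± 0.49 (SD, n = 3 pairs; exact p = 0.25), with the same sign in every pair. The difference of miR-122 lay above that of miR-192 in every pair, by 0.35, 0.41 and 0.26, or 0.34 ± 0.07 (SD, n = 3 pairs; exact p = 0.25, adjusted p = 0.38). After quantile normalization it was 0.067 ± 0.058 (SD, exact p = 0.50). That step gives miR-122, the brightest row, the same value on every array, so this is only the miR-192 difference with its sign reversed. In every pair the difference of miR-122 also lay above that of miR-194, by 0.65 ± 0.44 (SD, n = 3 pairs; exact p = 0.25, adjusted p = 0.38). Set against the row of miR-215, which may hold no more than background, miR-192 differed by -0.42 ± 0.20, miR-194 by -0.73 ± 0.60 and miR-122 by -0.08 ± 0.27 (SD, n = 3 pairs; exact p = 0.25, 0.25 and 0.75). After quantile normalization the difference of miR-192 minus that of miR-215 was -0.012 ± 0.15 (SD, n = 3 pairs; exact p = 1).

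Most bright microRNAs had lower means in tumours, and miR-192 and miR-194 were read against that. Of the 174 microRNAs brightest in adjacent liver, 90.8% had a lower mean in tumours and 65.5% had all tumours below all adjacent pieces. The 174 were chosen by adjacent liver alone, which leaves out microRNAs bright only in tumours and so favours lower tumours. How far this choice raised the shares of the 174 given here and elsewhere was not tested. At an unadjusted p below 0.05, 51.7% of the 174 were lower. The median log2 difference of the 174 was -0.31, with -0.54, -0.18 and -0.25 in pairs 1293, 1309 and 1316. The -0.45 of miR-192 lay within the body of the 174, where 35.6% of microRNAs had a lower difference. The -0.76 of miR-194 lay toward its lower end, with 7.47% below it, and the -0.11 of miR-122 lay toward its upper end, with 82.8% below it. Among the 10 brightest microRNAs of adjacent liver, 8 had a lower mean in tumours, and the differences ran from -0.45, that of miR-192, to 0.50, that of miR-21. Each array was also centred on the median of a bright set of microRNAs. The difference was then -0.35 ± 0.14 (SE) for miR-192 and -0.66 ± 0.16 for miR-194 (limma adjusted p = 0.26 and 0.069). This centring took out a shift, tumour minus adjacent, of only -0.10, not the -0.31 median difference of the 174. The centred values are therefore not what remains of miR-192 and miR-194 once the fall of the 174 is taken out.

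**Figure D3:**
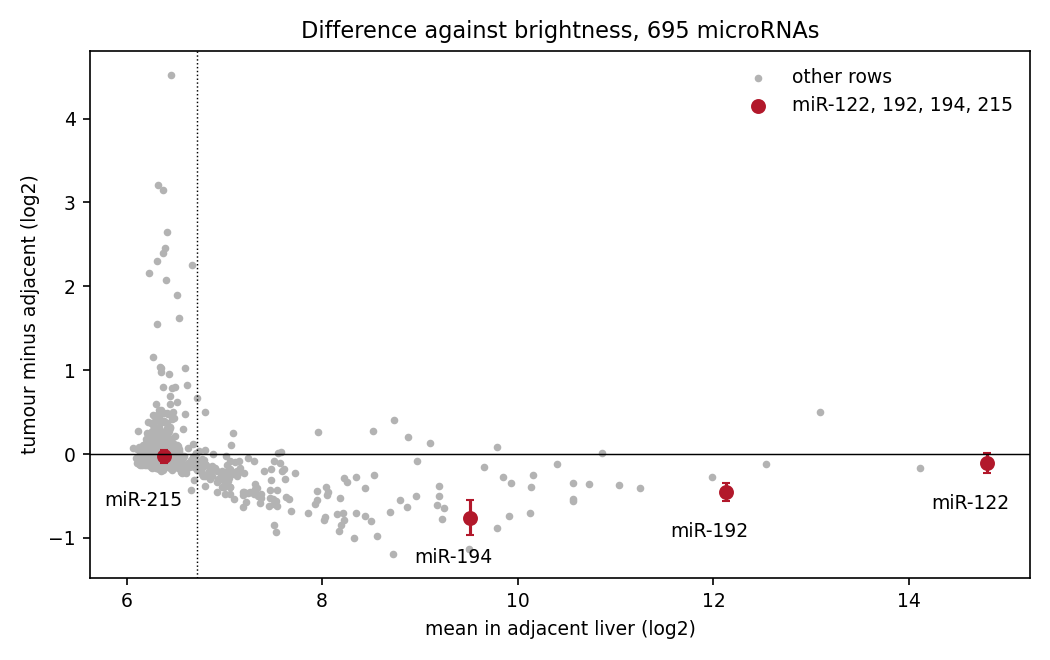
Log2 difference, tumour minus adjacent, against the mean log2 value in adjacent liver for 695 microRNAs (grey) with miR-122, miR-192, miR-194 and miR-215 in red (bars, SE). To the right of the dotted line, where the 174 brightest begin, most points lie below 0, and miR-194 lies lower than most of them.

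The rows most like each microRNA were sought by the Pearson correlation of log2 values over the 6 arrays, among the 347 rows brighter than the median. The arrays share the split into tumour and adjacent liver, which alone can give high values. Nearest to miR-194 were miR-31 (r = 0.996), the liver-expressed miR-365 (0.993) and the growth-restraining miR-26a (0.991), with log2 differences of -0.92, -0.71 and -1.14. Nearest to miR-192 were miR-130a (0.995), miR-15a (0.988) and miR-31* (0.983), with differences of -0.35, -0.54 and -0.48. Those nearest to miR-122 were miR-720 (0.912), miR-455* (0.892) and miR-664 (0.887), and those nearest to miR-215 were miR-181d (0.985), miR-290-3p (0.966) and miR-2183 (0.964). miR-192 and miR-194 correlated with each other at 0.894, and miR-122 correlated at 0.645 with miR-192 and 0.466 with miR-194.

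Other microRNAs abundant in hepatocytes were all among the 174 brightest and were read against that set. Of 16 listed and measured, 15 had a lower mean in tumours, 13 had all tumours below all adjacent pieces, against shares of 90.8% and 65.5% in the 174. Of the 16, 12 were lower and 1 was higher at an unadjusted p below 0.05, where 51.7% of the 174 were lower. Limma called 0 of the 16 over all microRNAs. Their median log2 difference was -0.64, with -0.79, -0.32 and -0.64 in pairs 1293, 1309 and 1316. The largest were those of miR-101a (-1.19 ± 0.37, SE), miR-26a (-1.14 ± 0.31) and miR-99a (-1.005 ± 0.21), with limma adjusted p-values of 0.15, 0.12 and 0.089. Without tumour 1293 limma called 10 of the 16 lower and 1 higher, where 12.2% of all microRNAs and 47.1% of the 174 brightest were called lower and 7.34% of all higher. Without tumour 1309 it again called 10 lower and 1 higher, where 5.32% of all and 21.3% of the 174 were called lower and 3.02% of all higher. Array weights called 13 of the 16 lower and 1 higher, and with the replicate block 5 lower and 1 higher. In these settings 12.5% and 5.04% of all microRNAs were called lower. Those were 87 of the 138 and 35 of the 73 microRNAs called in either direction, and the others were called higher. The share among the 174 brightest was not computed for these settings, so the counts of the 16 cannot be read against that set. The list median ran from -0.80 without tumour 1309 to -0.44 without tumour 1293. miR-101a was at 6.69, 8.24 and 7.68 in tumours 1293, 1309 and 1316, against 8.65, 8.78 and 8.74 in adjacent liver, so tumour 1293 was lowest and tumour 1309 nearest to adjacent liver, the order that miR-194 also had. The median difference of the 174 brightest had this order too, with -0.54, -0.18 and -0.25 in pairs 1293, 1309 and 1316.

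Of 12 other microRNAs that p53 induces or helps to mature, 8 had a lower mean in tumours, where 59.6% of all microRNAs and 90.8% of the 174 brightest did. At an unadjusted p below 0.05, 5 of the 12 were lower and 1 higher, with 0 called by limma over all microRNAs. At that threshold 14.1% of all microRNAs and 51.7% of the 174 were lower, and 5.9% of all were higher. The median log2 difference of the 12 was -0.11. All tumours lay below all adjacent pieces for 5 of the 12 and above them for 1. They lay below for 22.9% of all microRNAs and for 65.5% of the 174 brightest, to which 5 of the 12 belong. The share of all microRNAs with tumours above was not computed, so that count of 1 cannot be read against it. Limma called 3 lower and 1 higher without tumour 1293, and 4 lower and 1 higher with array weights, settings in which 12.2% and 12.5% of all microRNAs were called lower. Without tumour 1293, 47.1% of the 174 brightest were called lower and 7.34% of all microRNAs higher. With array weights, 87 of the 138 microRNAs called in either direction were lower, and the others were higher. Both miR-143 and miR-145 on this list are also stromal, and miR-141 and miR-200c are also epithelial. The largest differences were those of miR-107 (-0.64), miR-16 (-0.63) and miR-143 (-0.58).

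Lower means in tumours were also found for most markers of cells other than hepatocytes. The same held for 59.6% of all microRNAs and for 90.8% of the 174 brightest. Those 174 held 4 of the 7 bile duct, 4 of the 5 stromal and 4 of the 6 leukocyte markers. They also held the 2 endothelial and 2 erythroid markers, 2 of the 6 intestine and kidney markers and 0 of the 3 muscle markers. For bile duct and other epithelium, 6 of 7 microRNAs had a lower mean in tumours, and miR-200a (-0.63 ± 0.11, SE) and miR-200b (-0.57 ± 0.10), which mark epithelia such as bile duct, fell in limma's test without a block (adjusted p = 0.042 for both). With the replicate block limma's adjusted p was 0.15 for both, and they were called in 8 and 9 of 18 alternatives. Without tumour 1316 limma called 0 of these 7, and without tumour 1293 it called 4 lower. The list mean ran from 6.43 to 6.65 in tumours, against 6.84 to 6.95 in adjacent liver. For stroma 4 of 5 were lower, with list means of 6.63 to 6.89 in tumours and 7.14 to 7.23 in adjacent liver, and miR-199a-3p at -0.85. For leukocytes 4 of 6 were lower, with list means of 6.79 to 7.29 in tumours and 7.22 to 7.41 in adjacent liver. Median log2 differences were -0.40 for bile duct, -0.53 for stroma and -0.29 for leukocytes, -0.25 and -0.31 for the 2 endothelial and 2 erythroid microRNAs, and -0.07 for 3 muscle microRNAs. A list of 6 microRNAs of intestine and kidney epithelium, the tissues best known for miR-215, had a median of -0.06, with miR-31 at -0.92, miR-204 at 0.62 and miR-10a at -0.49. For miR-204, tumour 1293 was at 8.45 and tumours 1309 and 1316 at 6.43 and 6.51, against 6.46 to 6.59 in adjacent liver. Limma called 0 members of the stroma, leukocyte, endothelial, erythroid, muscle, and intestine and kidney lists, where 3, 2, 1, 0, 0 and 2 were lower at an unadjusted p below 0.05. At that threshold 14.1% of all microRNAs and 51.7% of the 174 brightest were lower. Without tumour 1293 limma called 4 stromal, 1 leukocyte, 1 endothelial and 2 intestine and kidney members lower. In that setting 12.2% of all microRNAs and 47.1% of the 174 brightest were called lower. Over 18 alternatives the medians ran from -0.57 to -0.24 for bile duct, from -0.65 to -0.32 for stroma, from -0.46 to -0.06 for leukocytes, from -0.35 to -0.13 for endothelial and from -0.48 to -0.11 for erythroid microRNAs. The medians of stroma (-0.32), leukocytes (-0.06) and erythroid microRNAs (-0.12) were smaller in size without tumour 1293, and the erythroid median was -0.12 without the adjacent piece 1316 and -0.48 without tumour 1316. With arrays centred on bright rows the sign turned for the muscle list (0.03) and the intestine and kidney list (0.04). The part of other cell types in the values of miR-192 and miR-194 was not tested.

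**Figure D4:**
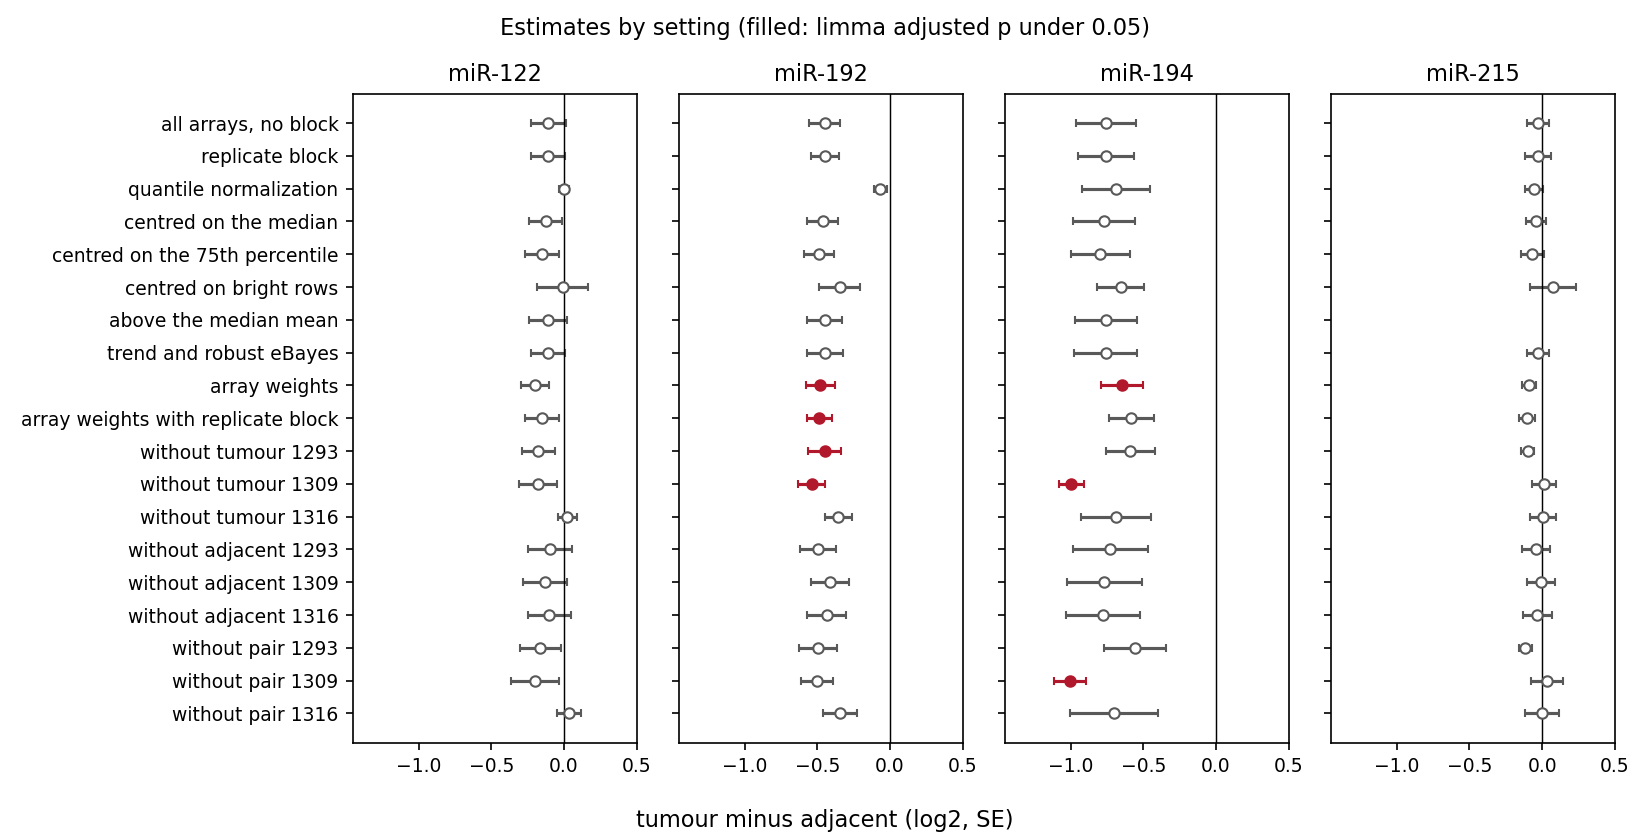
Log2 difference, tumour minus adjacent, with its SE for each microRNA in the fit of all arrays without a block and under each alternative, filled red where limma's adjusted p was under 0.05. miR-192 and miR-194 stay below 0 in all settings, from -0.54 to -0.07 and from -1.01 to -0.56, while miR-122 and miR-215 stay close to 0.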

How the data were processed

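Frozen tissue gave total RNA, which took up cyanine 3-pCp by Agilent's microRNA labelling procedure and was read on 1-colour arrays, as the labels' protocols state. The authors deposited values on a log scale, taken here as log2, the scale that RMA returns. The base is not given in the sources used here. RMA and limma are named without versions in the submitters' processing notes. Scanner files were not analysed here.

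All 695 microRNAs were tested with limma 3.58.1 (R 4.3.3), lmFit and eBayes, tumour against adjacent, two-sided, without a block, with Benjamini-Hochberg adjustment over all rows and a threshold of 0.05. The fit was tested on simulated data. That simulation's settings are not given here, so it cannot show how the fit behaves where the groups differ in spread, as they do here. The titles give tumour and adjacent piece the same numbers, which pair the samples, and the source labels match them for pairs 1293 and 1309 but read 1306 for the third tumour. The correlation of deviations from group means was -0.05 in pair 1293, 0.07 in pair 1309 and -0.003 in pair 1316. Whether the tumours are from different mice is not given, so p-values may measure less than the spread between mice.

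The members and lists were chosen with earlier results of these data known. Named are all members, up to 3 members of each other list by size of difference, and the 3 rows most correlated with each member. Alternatives were the replicate block, quantile normalization, 3 centrings, a filter on dim rows, an intensity trend with robust eBayes, array weights, and leaving out each array or pair. The number of arrays limits the precision. Figures were drawn with matplotlib 3.10.9.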

Additional observations from a re-analysis of the deposited data

How the results depend on the processing

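The differences of miR-192 and miR-194 were negative in all 18 alternatives, and limma called them in 4 and 3 of these. Array weights gave -0.48 for miR-192 (limma adjusted p = 0.013) and -0.65 for miR-194, and weights with the replicate block gave -0.49 for miR-192 (limma adjusted p = 0.038). The replicate block alone left miR-192 at -0.45 and miR-194 at -0.76 and changed no call of the 4. Leaving out arrays or pairs gave -0.54 to -0.34 for miR-192, -1.01 to -0.56 for miR-194, -0.20 to 0.03 for miR-122 and -0.11 to 0.03 for miR-215. The sign turned for miR-122 without tumour 1316 (0.02) or pair 1316 (0.033), and for miR-215 when arrays were centred on bright rows (0.074) and without tumour 1309 (0.01), tumour 1316 (0.004) or pair 1309 (0.033). miR-215 was removed by the filter on dim rows. Quantile normalization set miR-122 to 0 by construction, turned the difference of miR-122 minus that of miR-215 to 0.054, moved that of miR-192 minus miR-194 to 0.62, of miR-122 minus miR-192 to 0.067 and of miR-192 minus miR-215 to -0.012, and left 1 of the 4 microRNAs without overlap, against 2 in the deposited values. Of the 4, array weights called 2, weights with the block 1, and leaving out arrays or pairs 0 to 2, with 2 or 3 not overlapping. The share of all microRNAs without overlap was not computed with arrays left out or after quantile normalization. Groups of fewer arrays also separate more easily, so these counts of non-overlapping microRNAs cannot be read as a result. Over all rows limma called 20, 12 with the replicate block, 138 with array weights, 73 with both, and 9 to 136 with arrays or pairs left out, of which 136 came without tumour 1293, 58 without tumour 1309, 56 without pair 1293, 13 without tumour 1316 and 10 without any 1 adjacent array. The cause was not tested. With 3 arrays a group and no detection calls, small differences near background could not be resolved.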
